A study of Mus musculus with 6 samples.

Results

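The expression of 10 interferon-inducible GTPase genes was followed through the myeloid cells of glioma-bearing and tumor-free mouse brains. These genes were taken by symbol from the 30406 genes that the feature lists of all 3 pools shared, and each symbol had 1 row in each pool: Gbp2, Gbp3, Gbp4, Gbp5, Gbp6 and Gbp7 of the guanylate-binding proteins, and Iigp1, Igtp, Irgm1 and Irgm2 of the immunity-related GTPases. Ifit1 and Rsad2 were read beside them as genes induced mostly by type I interferon. RNA and surface protein tags were measured together in single CD11b+ brain cells (CITE-seq) of C57BL/6 mice aged 12 weeks. CD11b, an integrin chain, marks myeloid cells and some NK cells. Each of 3 pools combined 6 samples told apart by antibody hashtags: tumor-free controls and brains collected 14 or 21 days after implantation of tumor cells, each state with a female and a male sample. Whole brains were taken from the controls and tumor-bearing hemispheres from the others, after perfusion with saline to clear blood. The labels do not say which hashtag marked which group, nor which or how many animals a hashed sample held. No sample was therefore given a sex, tumor state or day, and every test compared cells of the same hashed sample. Its p-values measure the spread of these samples, which may be partly technical. Hashed samples are written as pool.hashtag, so that 3.6 is hashtag 6 of pool 3, and an equal hashtag number in 2 pools is not taken as an equal group.

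Guanylate-binding proteins and immunity-related GTPases are made in most cells after exposure to interferon. Interferon gamma acts through its receptor and the kinases JAK1 and JAK2, is read at GAS elements of promoters, and also raises the transcription factor IRF1. Type I interferons act through the IFNAR receptor, JAK1 and TYK2, and are read mostly at the ISRE. The GBPs assemble on pathogen membranes and on vacuoles and help to start inflammasome signalling. Iigp1 is an effector GTPase that disrupts vacuoles, while Irgm1, Irgm2 and Igtp, also called Irgm3, are regulators that keep the effectors inactive on the cell's own membranes. In brain tumors these genes serve as a reading of interferon exposure of microglia and of cells that enter from blood.

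Promoter sequences are shown because the 2 pathways are read through different letters. RefSeq windows of 300 bases on GRCm38.p6, the assembly also called mm10 (250 before the start site and 50 after), were matched by symbol for 7 of the 10 genes and for both type I genes, while Gbp4, Gbp6 and Iigp1 had none. The ISRE was searched on both strands as GAAA, 2 bases of any kind and GAAA, and the GAS as TTC, 3 bases of any kind and GAA, which reads alike on both strands; no match to one overlapped a match to the other. The ISRE letters stood in the first window of all 7 matched members and of Ifit1 and Rsad2, against 3.44% of all 32851 windows. The GAS letters stood in Gbp5, Gbp7, Igtp and Irgm2, and not in the windows of Gbp2, Gbp3, Irgm1, Ifit1 or Rsad2, against 8.30% of all windows. Both motifs together occurred in 0.454% of windows. The 120 bases before the start site of 7 genes follow 5′ to 3′ on the gene's own strand, with matches to either motif in capitals.
Gbp2 chr3:142620543-142620662 (+ strand): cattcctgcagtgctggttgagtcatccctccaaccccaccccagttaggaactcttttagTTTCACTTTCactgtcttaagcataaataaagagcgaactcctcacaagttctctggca
Gbp7 chr3:142530216-142530335 (+ strand): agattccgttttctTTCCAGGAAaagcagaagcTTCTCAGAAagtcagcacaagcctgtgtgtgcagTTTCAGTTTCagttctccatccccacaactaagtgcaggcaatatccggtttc
Igtp chr11:58199436-58199555 (+ strand): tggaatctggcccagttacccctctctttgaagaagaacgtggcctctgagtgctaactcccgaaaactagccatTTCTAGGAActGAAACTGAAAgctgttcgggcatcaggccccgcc
Irgm2 chr11:58214857-58214976 (+ strand): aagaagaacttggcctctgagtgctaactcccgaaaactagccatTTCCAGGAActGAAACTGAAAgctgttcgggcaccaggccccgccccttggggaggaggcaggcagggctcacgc
Irgm1 chr11:48871421-48871540 (- strand): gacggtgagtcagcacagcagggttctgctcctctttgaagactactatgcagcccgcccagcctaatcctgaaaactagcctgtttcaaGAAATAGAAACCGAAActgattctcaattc
Ifit1 chr19:34640769-34640888 (+ strand): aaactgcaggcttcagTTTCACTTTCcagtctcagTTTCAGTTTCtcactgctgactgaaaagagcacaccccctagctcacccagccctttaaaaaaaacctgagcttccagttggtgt
Rsad2 chr12:26456453-26456572 (- strand): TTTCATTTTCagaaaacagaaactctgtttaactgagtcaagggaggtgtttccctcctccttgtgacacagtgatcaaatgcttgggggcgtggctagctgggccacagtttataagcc
Igtp and Irgm2, which are neighbours on chromosome 11, carried the 2 motifs in the same order. The longest run of identical bases that their windows shared, 61 bases, held neither motif. In Irgm1 2 overlapping ISRE matches stood without a GAS match, as 2 ISRE matches did in Ifit1. A match is a description of letters and does not show binding, and the search read only these windows.

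The genes lie in clusters. Gbp5, Gbp7, Gbp3 and Gbp2 stood in that order between 142496934 and 142638008 of chromosome 3, and Gbp4 and Gbp6 between 105115767 and 105295871 of chromosome 5. Irgm1 lay at 48865245-48871420 of chromosome 11, Igtp at 58199556-58207592 and Irgm2 at 58214977-58222783 of the same chromosome, and Iigp1 at 60373616-60392634 of chromosome 18. Close relatives lie beside them, such as Gbp2b next to Gbp2, Gbp10 next to Gbp6 and Gm4951 near Iigp1. Reads from such near-identical copies could have been split or lost in counting, so that the level of any 1 paralog is uncertain.

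Among 22145 cells with a clear hashtag, 10190 were microglia-like, 3868 monocyte-like, 4254 macrophage-like and 901 dendritic-like. The classes were named by marker genes of clusters made without a fixed set of interferon genes. Interferon-induced genes outside that set, such as Ifi205, were not left out, so the classes may not be free of interferon state. Microglia are the resident macrophages of the brain, and the other classes mostly enter from blood. The mRNA libraries held 71510276 to 107880924 UMIs (counts of distinct molecules) in 11010 to 13925 barcodes per pool, and 32 to 53 barcodes were shared between any 2 pools. In pool 3 only 16.1% of the barcodes that passed the filters had 1 hashtag with at least 80% of the hashtag UMIs, against 79.2% and 87.5% in pools 1 and 2, so pool 3 rests on few cells. The sort held more than these classes: 1969 cells stayed unnamed, among them 868 cells of cluster 0 with both microglia and macrophage markers, and 649 NK-like cells were present in the CD11b sort. Summed microglia markers reached a median of 15971 CPM (UMIs of a gene scaled to 1000000 UMIs of the sum) in microglia-like sums and 444, 788 and 1077 CPM in monocyte-, macrophage- and dendritic-like sums.

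Monocyte-like cells held the highest level of the GTPase RNAs among the 4 classes. The 10 members together made 2167 CPM at the median over 11 hashed samples (1710 to 4300). Dendritic-like cells followed with 1469 CPM (953 to 3453, 10 samples), macrophage-like cells with 1035 CPM (746 to 2466, 11 samples) and microglia-like cells with 651 CPM (150 to 4041, 18 samples). Over the 11 samples that also gave macrophage-like sums, the microglia-like median was 1015 CPM, near that of macrophage-like cells. Among those of the 11 outside pool 1, the middle value was 968 CPM (sample 2.6). The median of 402 CPM without pool 1 belongs to the full set of 18 microglia-like sums, which includes samples without a macrophage-like sum. The ranges of neighbouring classes in this order overlapped. Within samples the order was firmer, since the sum was higher in monocyte-like than in macrophage-like cells in 11 of 11 samples, in monocyte-like than in microglia-like cells in 11 of 11, and in dendritic-like than in macrophage-like cells in 9 of 10. Macrophage-like cells were above microglia-like cells of the same sample in only 5 of 11. In bulk sums, fewer cells with a transcript and less RNA per cell cannot be told apart. NK-like cells, which lie outside these classes, held 441 CPM (311 to 1161, 9 samples).

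**Figure D1:**
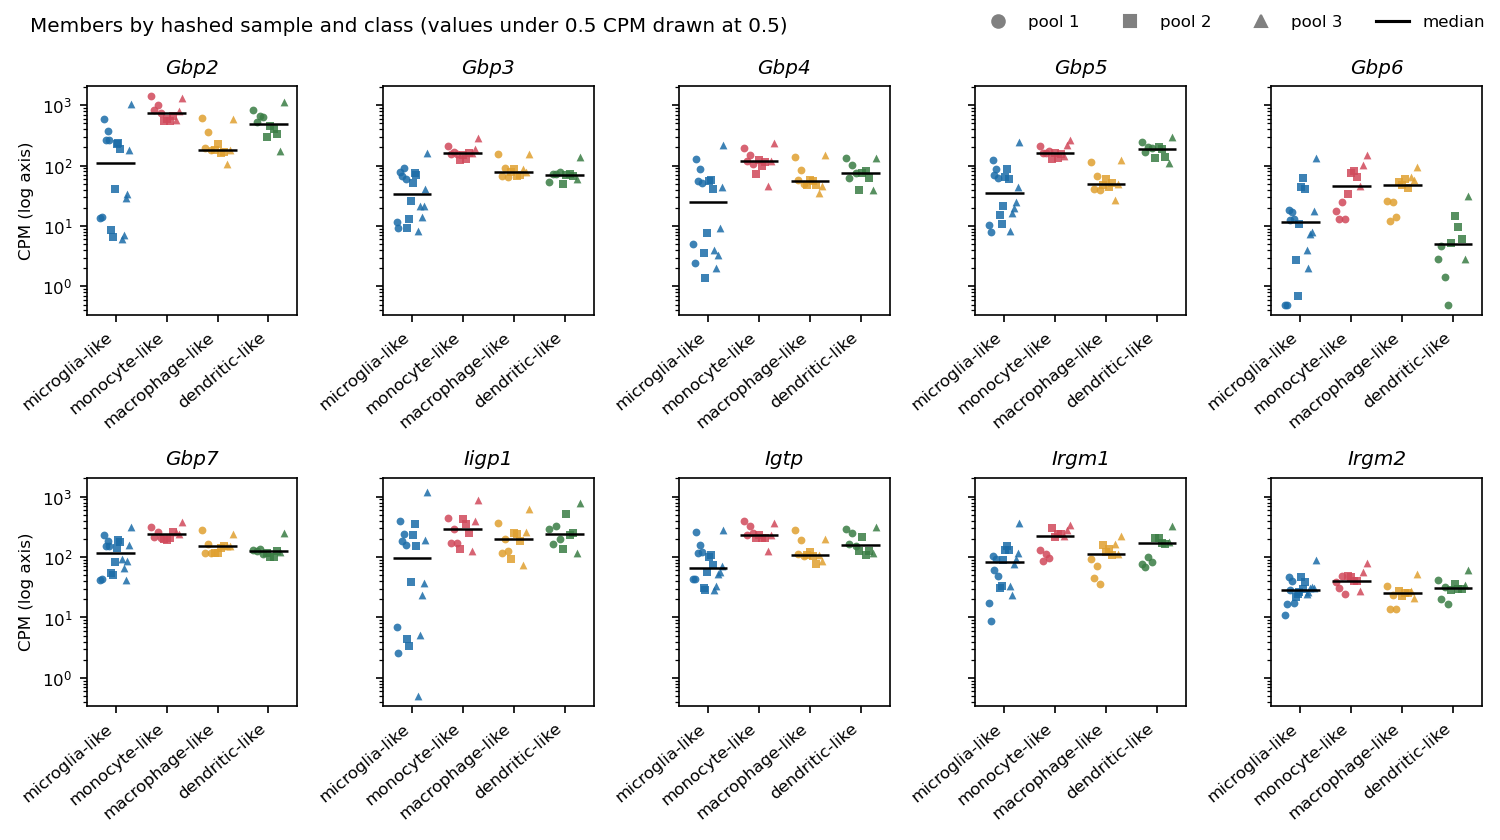
Level of each member in CPM (log axis) in every hashed sample, by class, with the pool as the marker shape and the median as a bar; values under 0.5 CPM are drawn at 0.5. Monocyte-like sums lie highest for Gbp2, with a median of 744 CPM, while Gbp6 is near 0 in dendritic-like sums, with a median of 4.95 CPM.

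Microglia-like cells spread most. Their summed members lay between 150 and 208 CPM in samples 1.1, 1.2, 2.1, 2.2, 3.1 and 3.2, at 299 CPM in 3.3, 400 in 2.3 and 404 in 3.4, between 898 and 1370 CPM in 1.4, 1.5, 1.6, 2.4, 2.5, 2.6 and 3.5, and at 1981 CPM in 1.3 and 4041 CPM in 3.6. Sample 3.6 held only 49 microglia-like cells. Iigp1 had the widest spread, from 0 UMIs in sample 3.1, a count that allows up to 6.10 CPM, to 1185 CPM in sample 3.6. Irgm2 stayed between 11.1 and 88.3 CPM. Gbp2 ran from 6.10 to 1046 CPM, and Gbp7 from 41.7 to 314 CPM. Over the 11 samples with macrophage-like sums (10 for dendritic-like cells), Gbp2 made a median of 20.7% of the members' UMIs in microglia-like, 20.3% in macrophage-like, 30.6% in dendritic-like and 30.8% in monocyte-like sums. Over all 18 microglia-like sums it made 14.0%. Irgm2 made 2.90% in the microglia-like sums of the 11 samples, 5.41% over all 18, and 1.85% to 2.03% in the other classes.

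Gbp6 and Irgm1 also differed by pool. In macrophage-like cells Irgm1 lay between 36.2 and 91.4 CPM in the 4 samples of pool 1 and between 109 and 225 CPM in the 7 samples of pools 2 and 3, with no overlap. Gbp6 lay between 12.3 and 26.4 CPM in pool 1 and between 43.1 and 96.3 CPM in the other pools, again without overlap. The other members overlapped between pools in these cells. The matrix header of pool 1 names software version 3.1.0 and those of the other pools name 4.0.0, and the part of that difference in these levels was not tested. Comparisons within samples are made within a pool and do not cross it.

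Set against macrophage-like cells of the same sample, all 10 members were higher in monocyte-like cells, where 27.3% of all 8813 genes tested were called higher and 56.5% in either direction (adjusted p under 0.05, edgeR's quasi-likelihood test with the hashed sample as a block). The median log2 fold change of the members was 0.96, against -0.03 over all genes tested. Gbp2 lay between 548 and 1397 CPM in monocyte-like sums (median 744) and between 108 and 607 CPM in macrophage-like sums (median 183). It was higher in 11 of 11 samples, by 1.77 ± 0.09 on the log2 scale (SE, n = 11, edgeR adjusted p = 5.9e-12). Gbp5, an activator of the NLRP3 inflammasome, was the member whose ranges did not overlap, at 128 to 264 CPM (median 162) against 27.0 to 124 CPM (median 49.5), a 3.06-fold difference. The other GBPs were closer to each other: Gbp3 differed 2.0-fold, Gbp4 1.96-fold and Gbp7 1.66-fold, each in 11 of 11 samples. Gbp6 was the weakest, at a log2 fold change of 0.32 ± 0.12 (SE, edgeR adjusted p = 0.023). It was higher in 7 of 11 samples on the scale of the test and in 6 of 11 in CPM. Its median CPM went the other way, at 45.4 in monocyte-like and 48.1 in macrophage-like sums. Its mean log2 difference was -0.08 in pool 1, 0.30 in pool 2 and 0.36 in pool 3. Under DESeq2 Gbp6 did not pass (adjusted p = 0.126), nor without pool 2 or without pool 3.

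Among the immunity-related GTPases, Igtp lay at 127 to 393 CPM (median 232) in monocyte-like and 77.6 to 284 CPM (median 110) in macrophage-like sums. The ranges overlapped, and Igtp was higher in each of the 11 samples, by 1.03 ± 0.08 (log2, SE). The regulators Irgm1 and Irgm2 differed by 0.95 and 0.87 on the log2 scale and the effector Iigp1 by 0.60, again in 11 of 11 samples each. Mean differences of these 4 genes were positive within each pool, from 0.52 to 1.11. Monocyte markers summed to 5758 to 12295 CPM in monocyte-like and 914 to 6762 CPM in macrophage-like sums, and microglia markers to 325 to 629 and 459 to 1138 CPM. Their part in the member differences was not tested.

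Most other genes of the pathway were called higher here too. Of the 12 interferon signalling genes 11 were higher and none lower, led by the feedback inhibitors Socs1 (log2 fold change 1.31) and Usp18 (1.25), by Irf1 (1.06) and by Irf7 (1.05). Of the interferon gamma targets, 13 of 13 tested were higher, among them the chemokines Cxcl10 (1.89) and Cxcl9 (1.31), with a median of 0.56 over the list. Of the type I interferon targets, 14 of 15 were higher and none lower, with a median of 1.18. Of the 4 receptor chains tested, Ifngr1, Ifngr2 and Ifnar1 were higher and Ifnar2 was lower, by 0.12 on the log2 scale. Of 11 further interferon GTPases tested 10 were higher, led by Tgtp1 (1.78) and Ifi47 (1.44). Of 12 partner genes, which act in inflammasomes or load the GTPases onto membranes, 8 were higher, led by the inflammatory caspase genes Casp4 (1.32) and Casp1 (0.80). The median over the partner genes was 0.21.

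All 10 members were also higher in monocyte-like than in microglia-like cells (36.3% of 9400 genes were called higher, 40.5% lower and 76.8% in all). Gbp2 lay between 33.3 and 1046 CPM in the microglia-like sums of these 11 samples (median 241), so its range overlapped that of monocyte-like sums, yet each sample had more in its monocyte-like cells. The difference was 2.12 ± 0.24 on the log2 scale (SE, n = 11, edgeR adjusted p = 8.7e-08), or 4.36-fold. Gbp3 followed with 3.42-fold, Gbp5 with 3.09-fold, Gbp4 with 2.81-fold and Igtp with 2.78-fold. The smallest differences were those of Irgm2 (0.59 ± 0.11, log2, SE) and Iigp1 (0.85 ± 0.17). Iigp1 was higher in 10 of 11 samples on the TMM scale of the test and in 9 of 11 in CPM. With total UMIs in place of TMM, which moves the median of all genes from -0.06 to -0.45 and the share of higher among all calls from 47.3% to 27.8%, Irgm2 no longer passed (0.20, adjusted p = 0.0799), and the other 9 members did.

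**Figure D2:**
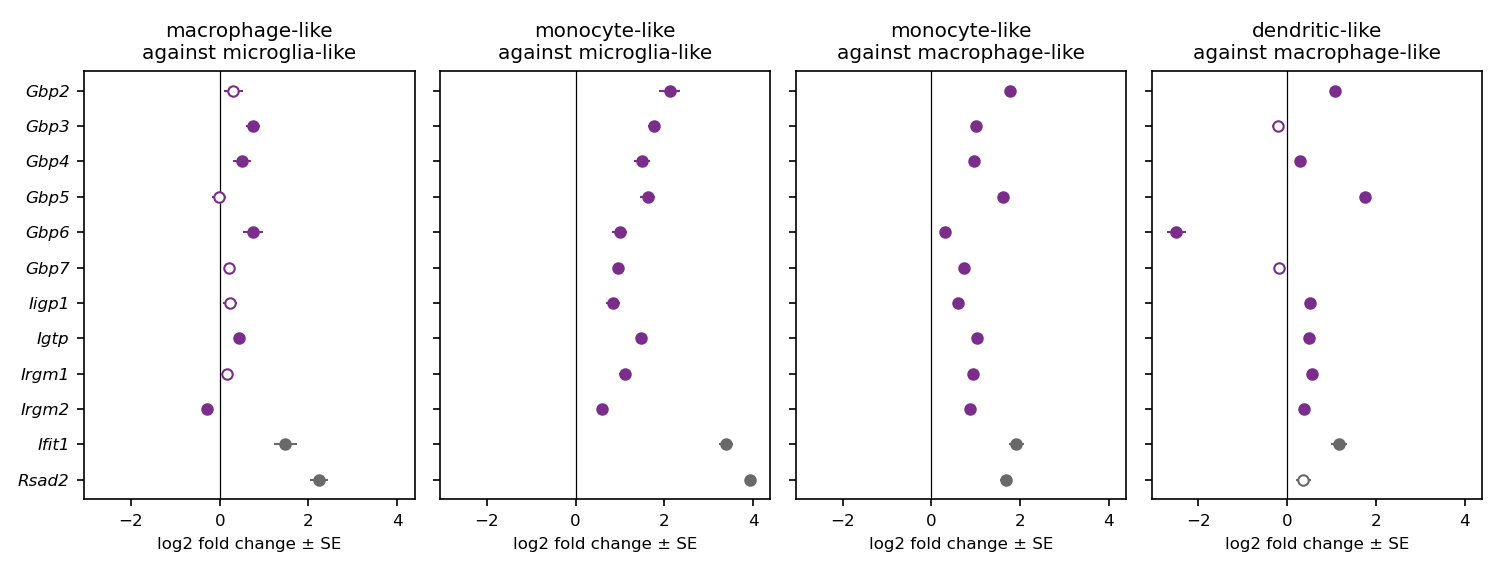
Log2 fold change with its SE for each member (purple) and for Ifit1 and Rsad2 (grey) in 4 comparisons of classes within hashed samples; filled points passed an adjusted p of 0.05. All 10 members lie above 0 in both comparisons of monocyte-like cells, and Gbp6 lies at -2.50 in dendritic-like against macrophage-like cells.

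Macrophage-like and microglia-like cells of the same samples differed in 5 of the 10 members, by at most 1.69-fold. Of the 10 members 4 were called higher in macrophage-like cells and 1 lower, where 35.2% of 9683 genes were higher and 37.3% lower, 72.4% in all. Gbp3 lay between 65.8 and 158 CPM (median 79.8) against 21.8 and 160 CPM (median 66.3) and was higher by 0.76 ± 0.16 (log2, SE, n = 11, edgeR adjusted p = 4.2e-04). Gbp6 was higher by 0.76, Gbp4 by 0.51 and Igtp by 0.44, while Irgm2 was lower by 0.28 on that scale, in 10 of 11 samples. Gbp2 (0.30), Gbp5 (-0.03), Gbp7 (0.20), Iigp1 (0.23) and Irgm1 (0.17) did not pass. Scaling by total UMIs, which moves the median of all genes from -0.03 to -0.32 and the share of higher among all calls from 48.5% to 29.9%, left only Gbp3 called higher. Without pool 2, Gbp4 and Igtp did not pass, without pool 1 Gbp4 and Irgm2 did not, and without pool 3 Irgm2 did not.

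In the same comparison the type I genes Ifit1 and Rsad2 were both called higher. Rsad2, which makes the antiviral enzyme viperin, lay between 53.2 and 641 CPM in macrophage-like sums (median 148) and between 16.4 and 119 CPM in microglia-like sums (median 49.7). It was higher in 11 of 11 samples, 4.73-fold, and Ifit1, which makes a binder of viral RNA, 2.79-fold. The wider lists did not share that size: 12 of 15 type I targets were higher, with a median log2 fold change of 0.66, and 10 of 13 interferon gamma targets, with a median of 0.94. Among the interferon signalling genes, Irf7 (log2 fold change 2.31) and Jak2 (1.66) were higher in macrophage-like cells, and Irf8 (-0.78) and Irf1 (-0.53) lower, with 6 of 12 higher and 2 lower in all. Ifngr1, the ligand-binding chain of the interferon gamma receptor, was lower by 1.25 in macrophage-like cells, without overlap of the ranges (138 to 236 against 300 to 654 CPM). Ifnar1, a chain of the type I receptor, was higher by 1.03 in 11 of 11 samples.

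The balance between the GTPase RNAs and the type I genes varied between classes and samples. The ratio of the summed members to Ifit1 plus Rsad2 had a median of 2.63 in monocyte-like, 3.42 in dendritic-like, 4.84 in macrophage-like and 12.8 in microglia-like sums (12.1 over the 11 samples shared with the infiltrating classes). Samples 2.3 and 3.4 held the highest levels of Rsad2 in monocyte-like cells, 1182 and 1640 CPM against 239 to 661 CPM in the other 9. The same samples held the lowest summed members, 1808 and 1710 CPM against 1939 to 4300 CPM. In macrophage-like cells Ifit1 plus Rsad2 reached 1008 and 980 CPM in samples 2.3 and 3.4 and 79.2 to 521 CPM in the others, and the ratios of these samples, 0.909 and 0.862, were the lowest of all macrophage-like sums. Sample 3.6 was at the other end. Its monocyte-like sum held 4300 CPM of members and 517 CPM of Ifit1 plus Rsad2, a ratio of 8.32, and its microglia-like sum had a ratio of 56.2. That microglia-like ratio rests on 35 UMIs of Ifit1 plus Rsad2, and those of samples 3.1 and 3.2 on 8 and 12 UMIs, so they are imprecise.

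**Figure D3:**
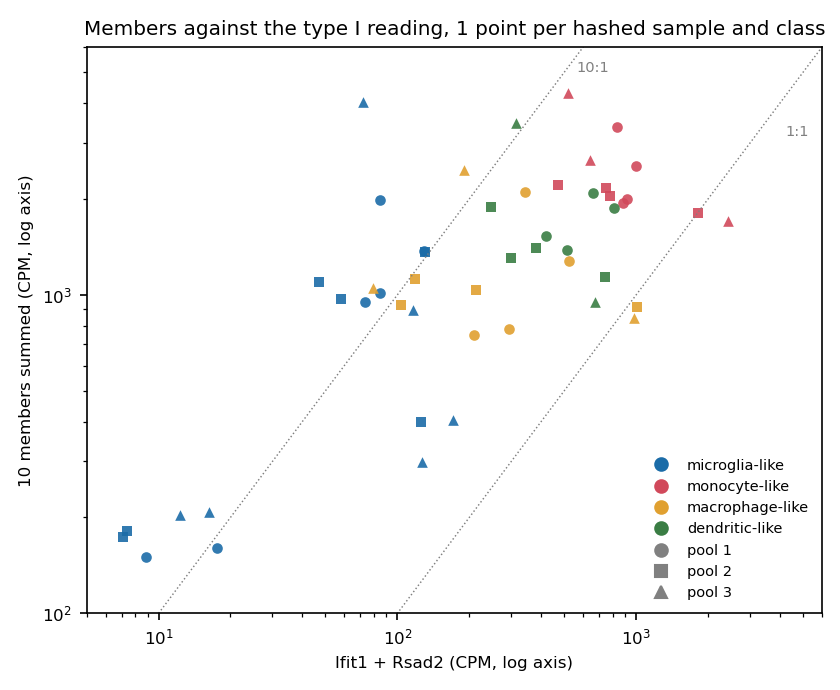
Summed members against Ifit1 plus Rsad2, both in CPM on log axes, with 1 point for each hashed sample and class, coloured by class; dotted lines mark ratios of 1 and 10. Microglia-like points lie to the left, with a median ratio of 12.8, and the monocyte-like points of samples 2.3 and 3.4 lie at or below the line of 1, at 0.992 and 0.704.

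Single cells were also counted. After thinning each cell to 2000 UMIs, 3 or more members were detected in a median of 45.7% of monocyte-like cells per sample, 32.0% of dendritic-like, 23.0% of macrophage-like and 9.68% of microglia-like cells (18 samples). Over the 11 samples with macrophage-like sums the microglia-like median was 18.2%. Without thinning the medians were 88.2%, 75.1%, 78.5% and 36.2% (56.3% over the 11 samples), so that macrophage-like cells then stood above dendritic-like cells, at median depths of 7193, 8692, 10784 and 4747 UMIs. Thinning left out 463 microglia-like, 68 monocyte-like, 100 macrophage-like and 27 dendritic-like cells of lower depth. At the median over samples, Gbp2 was detected in 56.6% of thinned monocyte-like cells and in 4.55% of NK-like cells, whose median depth was 2896 UMIs. Iigp1 was detected in 32.1% and 0% at the median, and ran from 0 to 18.2% of NK-like cells over 9 samples. Cells with a UMI of Ifit1 or Rsad2 held 3 or more members more often than cells without one, at medians of 59.8% against 37.6% in monocyte-like and 30.2% against 14.1% in microglia-like cells (13 samples) over samples with at least 10 cells of each kind. These shares describe cells of the same samples and carry no test.

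Within the monocyte-like class the level differed by cluster. Cluster 13, whose leading genes included Timp1, Rsad2 and Cxcl10, held a median of 4274 CPM of summed members and 1628 CPM of Rsad2. Cluster 10, led by Ly6i, Ly6c2 and Plac8, held 1815 and 329 CPM, and cluster 14, led by Ace, Ear2 and Treml4, 1064 and 115 CPM. Gbp2 was at a median of 1823 CPM in cluster 13 and 541 CPM in cluster 10, whereas Iigp1 was at 338 and 281 CPM, and at 22.9 CPM in cluster 14. In microglia-like cells clusters 1, 2 and 5 lay at 233 to 286 CPM and clusters 3, 4 and 16 at 989 to 1341 CPM. Cluster 3 was led by Egr3, Tnf and Il1a, cluster 4 by C4b and H2-Oa, and cluster 16 by cell cycle genes such as Top2a. The samples with enough cells differ between clusters, so these medians are descriptions and carry no test.

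**Figure D4:**
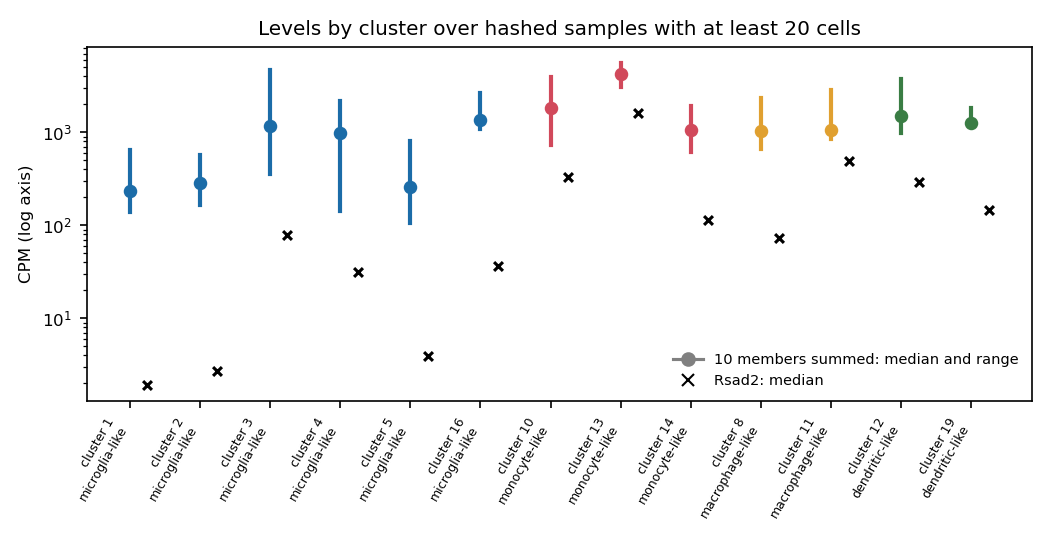
Summed members by cluster in CPM (log axis), as the median and the range over hashed samples with at least 20 cells, coloured by class, with the median of Rsad2 as a cross. Cluster 13 lies highest, at a median of 4274 CPM, and the microglia-like clusters fall into a lower set at 233 to 286 CPM and a higher set at 989 to 1341 CPM.

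Dendritic-like cells differed from macrophage-like cells gene by gene. Of the 10 members 7 were higher and 1 lower, where 27.9% of 7304 genes were higher and 28.0% lower, 55.9% in all. Gbp5 lay between 110 and 293 CPM (median 192) against 27.0 and 124 CPM (median 49.9), higher in 10 of 10 samples by 1.76 ± 0.11 (log2, SE, n = 10, edgeR adjusted p = 1.8e-10). Gbp2 was 2.12-fold higher in 10 of 10 samples. The immunity-related GTPases were 1.31-fold (Irgm2) to 1.47-fold (Irgm1) higher; with classes from marker shares per cell Iigp1, Igtp and Irgm2 lost the call (adjusted p = 0.110, 0.0865 and 0.0792). Gbp6 went the other way, at 0 to 31.8 CPM (median 4.95) in dendritic-like sums and 12.3 to 96.3 CPM (median 45.6) in macrophage-like sums. It was lower in 10 of 10 samples, 5.67-fold (log2 fold change -2.50 ± 0.22, SE, edgeR adjusted p = 1.8e-08), and its mean difference was -3.01, -2.47 and -2.85 in pools 1, 2 and 3. Gbp4 was higher by 0.29 (adjusted p = 0.015), a call lost with total UMI scaling and without pool 1 or pool 2, and Gbp3 (-0.21) and Gbp7 (-0.19) did not pass. Ifit1 was 2.25-fold higher and Rsad2 (0.37 on the log2 scale, adjusted p = 0.086) did not pass. Rsad2 passed under several alternatives, at 0.92 with the interferon genes kept in clustering, 0.74 with HTODemux, another way to assign hashtags, 0.59 with classes from marker shares and 0.49 without pool 3.

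The 2 dendritic-like clusters were not alike. In cluster 12, led by Ccl17 and Cd209a, Gbp7 had a median of 151 CPM, and in cluster 19, led by Ccr7, a receptor of dendritic cells that move to lymph nodes, it had 26.6 CPM. Gbp5 was at 153 CPM in cluster 12 and 358 CPM in cluster 19, and Iigp1 at 302 and 104 CPM. Gbp6 was low in both, at 4.66 and 7.38 CPM. Of 12 interferon signalling genes 11 were higher in dendritic-like than in macrophage-like cells and none lower, led by Jak2 (log2 fold change 1.98), Irf8 (1.31), Irf1 (1.14) and Usp18 (0.90). Ifngr1 was higher by 0.83, with 212 to 356 against 138 to 194 CPM and no overlap. Among the partner genes Casp4 (1.12) and Gabarapl2 (0.79), a ubiquitin-like protein that recruits the GTPases, were higher, and Atg7 (-0.78) and Nlrp3 (-0.76) lower. Dendritic-like sums also held microglia markers at 512 to 2533 CPM and macrophage markers at 1841 to 4347 CPM, and their part in these differences was not tested.

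Microglia-like cells high in the MHC-II tag held more of these RNAs than cells low in it. MHC-II presents peptides to CD4+ T cells and is itself raised by interferon gamma through Ciita. The gates were the highest and lowest 25% of cells of a class and hashed sample by the centred log ratio of the tag. Median tag counts per cell were 49.8 (high gate) and 12.0 (low gate) for microglia-like cells, and 3432 and 668 for macrophage-like cells. H2-Aa, an RNA of MHC-II, was higher in the high gate in 16 of 16 microglia-like samples, 4.93-fold, and in 10 of 10 macrophage-like samples, 2.63-fold. Of the 9 members tested in microglia-like cells 7 were higher and none lower, where 6.93% of 7304 genes were higher. Gbp6 did not pass the filter on low counts.

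Iigp1 lay between 0 and 540 CPM in the high gate (median 62.6) and between 0 and 212 CPM in the low gate (median 19.8). It was higher in 15 of 16 samples and tied at 0 in the other, by 1.61 ± 0.19 (log2, SE, n = 16, edgeR adjusted p = 1.4e-06). Gbp4 was higher 2.92-fold, also in 15 of 16 samples, and Gbp2 2.20-fold in 14 of 16. Gbp5 (0.67), Gbp3 (0.62), Irgm1 (0.57) and Igtp (0.41) passed with smaller log2 differences, and Gbp7 (0.34, adjusted p = 0.053) and Irgm2 (0.36, adjusted p = 0.075) did not. The mean difference of Gbp2, Gbp4 and Iigp1 was positive in every pool, from 0.66 to 1.74, while that of Igtp was 0.62 in pool 1 and -0.06 in pool 3. Without pool 1 only Gbp2 and Iigp1 were called higher, Gbp4 did not pass the filter on low counts, and Gbp3, Gbp5, Igtp and Irgm1 missed the threshold. Scaling by total UMIs moved the share of higher among all calls from 65.7% to 29.3% and ended the call of Igtp (adjusted p = 0.0778). Rsad2 (1.44) and Ifit1 (0.81) passed as well, as did 11 of 12 type I interferon targets tested, 8 of 10 interferon gamma targets and 6 of 12 signalling genes, whereas Ifngr1 was lower by 0.27. Rsad2 was uneven, higher in 10 of 16 samples and lower in 5, with mean differences of 0.56, 1.41 and 0.06 in pools 1, 2 and 3. Ifit1 was higher in 14 of 16. Rsad2 did not pass under DESeq2 (1.09, adjusted p = 0.0678) or with classes from marker shares (0.60, adjusted p = 0.139), and Ifit1 did not pass with those classes (adjusted p = 0.0854) or without pool 2 (adjusted p = 0.0903).

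The gates also differed in their cells. Cluster 3 made a mean of 29.1% of the high gate and 10.9% of the low gate in microglia-like cells, and cluster 2 made 14.0% and 25.6%. Of the 10 microglia markers 6 were lower in the high gate, with a median log2 fold change of -0.30 over the 10. Of 4 macrophage markers tested 1 was higher, with a median of 0.53, and of 2 monocyte markers none. Depth differed as well, with a median over samples of 5500 UMIs per cell in the high gate and 5088 in the low gate. Single samples ran from 12134 against 5821 UMIs (2.5) to 4778 against 5676 UMIs (3.3). The part of this mixture and of depth in the member differences was not tested.

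In macrophage-like cells no member was called between the gates by the same test, where 1.01% of 6445 genes were higher and 1.61% lower, and DESeq2 also called none. These gates differed in their cells too. Of 6 monocyte markers tested 5 were lower in the high gate and none higher, with a median log2 fold change of -1.08. Of 8 macrophage markers 1 was higher and 2 lower. Cluster 11 made a mean of 34.7% of the high gate and 44.8% of the low gate. The part of this in the member values was not tested. The pools differed: in pool 1 Gbp2 (mean log2 difference -0.54), Gbp3, Gbp4 (-0.52), Igtp and Irgm2 were lower in the high gate in 4 of 4 samples, and in pool 2 Gbp5 (0.65), Gbp6, Gbp7 and Iigp1 (0.49) were higher in 4 of 4. At an unadjusted p under 0.05 there were 2 of 10 members by edgeR, where 899 of all 6445 genes passed. By DESeq2 there were also 2 members, where 661 genes passed. Gbp5 was nearest, at 0.44 ± 0.14 (log2, SE, n = 10, edgeR adjusted p = 0.099), and it passed without pool 1 (0.75). Without pool 2 both Rsad2 (-1.16) and Ifit1 (-0.66) were lower in the high gate. With all pools, 4 of 13 interferon gamma targets tested were higher in the high gate and none lower. They were Cxcl9 (0.92), Ciita (0.72), Serpina3g (0.67) and Cd40 (0.55), and the median over the list was 0.05. The difference between the 2 classes was tested in the 8 samples that gave all gates. It passed for 8 of the 10 members, from -0.71 for Gbp3 to -1.49 for Gbp4 on the log2 scale (macrophage-like minus microglia-like), and not for Gbp5 (-0.44, adjusted p = 0.32) or Gbp7 (-0.48, adjusted p = 0.069). Rsad2 (-2.27) and Ifit1 (-1.37) passed as well, as did 489 of all 8337 genes tested.

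**Figure D5:**
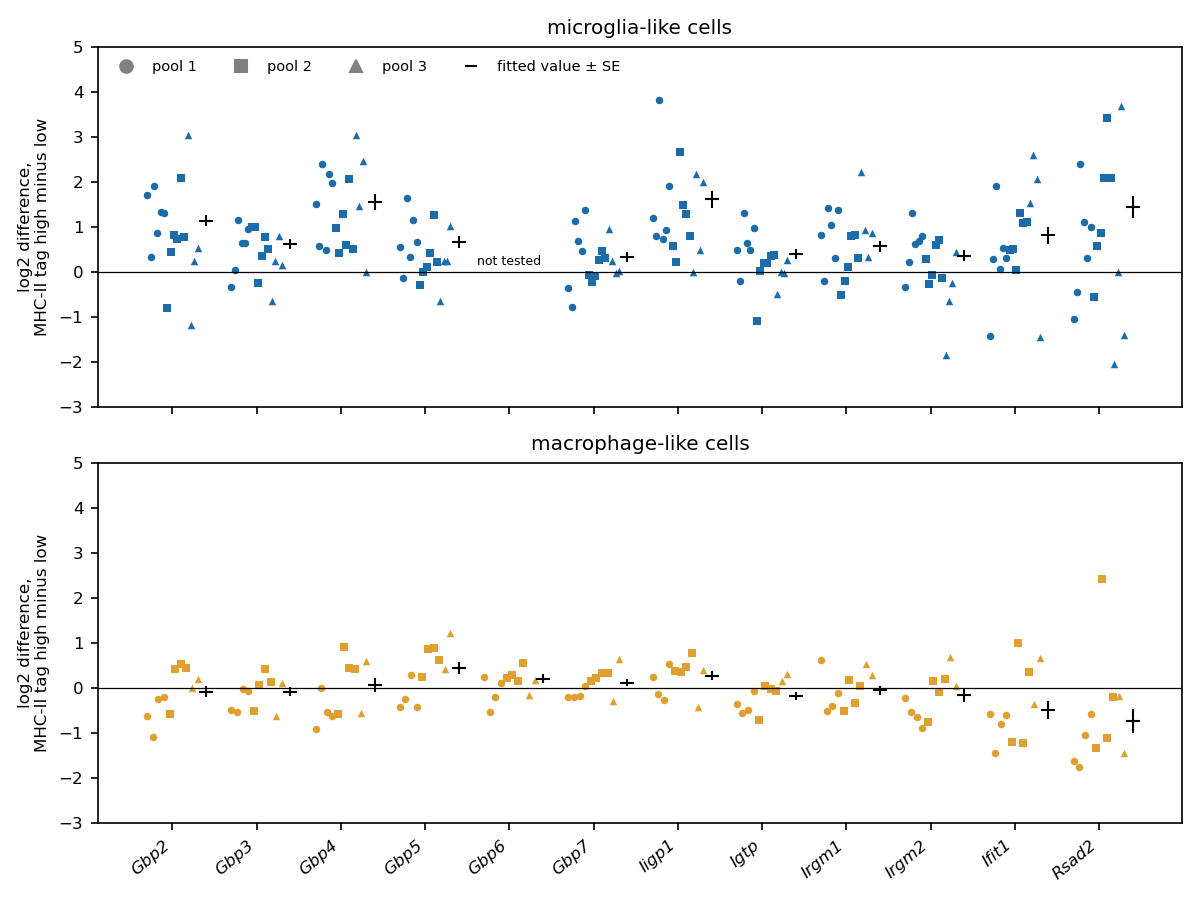
Log2 difference between the high and the low MHC-II tag gate in each hashed sample for microglia-like (top, 16 samples) and macrophage-like cells (bottom, 10 samples), with the fitted value and its SE as a black mark. In microglia-like cells Iigp1 and Gbp4 lie above 0 in 15 of 16 samples, and in macrophage-like cells no member passed the test.

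RNA for interferon gamma itself was found in NK-like sums, at a median of 316 CPM (179 to 656, 9 samples), and had a median of 0 in the 4 myeloid classes, with at most 2.83 CPM in a dendritic-like sum. Unnamed cluster 20, with NK and microglia markers, held 66.6 and 158 CPM in its 2 sums. The 78 T-like cells gave no sum of at least 20 cells, so their level is not known. Ifngr1 was at a median of 1935 CPM in NK-like, 603 in microglia-like (525 over the 11 samples), 288 in dendritic-like, 234 in monocyte-like and 168 in macrophage-like sums. Outside the interferon lists, the genes whose log2 CPM followed the summed members most closely over the 50 sums of the 4 classes were Fgl2 (Pearson's r = 0.948), Slamf8 (0.948), Ly6a (0.915), Psma5 (0.914) and Plaat3 (0.909), among 7422 genes with a mean of at least 10 CPM. These sums share libraries, depth and samples, so the values describe these data only.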

How the data were processed

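The deposited matrices held whole-number UMI counts per gene and cell barcode for 3 pools, with mRNA and tag libraries for each. Per the submitters' processing notes, the authors used bcl2fastq 2.20.0.422, Cell Ranger 3.0.1 and 4.0.0, Seurat 3 and the build mm10; no values were normalized in these counts.

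Cells with at least 200 genes and 500 UMIs and at most 10% mitochondrial counts were kept, and given to a hashtag with at least 10 hashtag UMIs and 80% of them. Clusters (scanpy 1.11.5, Leiden resolution 1, 2000 variable genes, 30 components) were made without the interferon lists and named by marker genes; clusters mixing microglia markers were left out by a rule set after marker levels had been seen. Counts were summed per hashed sample and class with at least 20 cells. Classes and gates were compared with edgeR 4.0.16 (quasi-likelihood test, TMM, filterByExpr, hashed sample as block, Benjamini-Hochberg threshold 0.05). The block is given by the design, since both arms came from the same hashed sample. CPM are counts scaled to 1000000 UMIs of the class, and limits for a count of 0 use 3 counts. Counting intervals and limits cover counting error only. Doublets were scored with Scrublet and removed only in an alternative. All 10 members, Ifit1 and Rsad2 were named, with pathway genes by size within lists; members and lists were chosen with earlier results of these data known. The alternatives tried were scaling, DESeq2 1.42.0, filters, hashtag assignment, class rules, cell minimums, the block and each pool left out. The tests were checked on simulated counts with 200 changed genes, where 94% to 98% of those changed by 1 on the log2 scale were recovered in the 6 comparisons, with 6 to 12 false calls each. The simulation had a fixed dispersion, no differences between samples except depth, and fewer changed genes than the class comparisons called. It therefore does not measure the error in these data.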

Additional observations from a re-analysis of the deposited data

Results flagged for a closer look

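The difference between the MHC-II tag gates was tested between macrophage-like and microglia-like cells in 8 hashed samples, and 10 of the 12 genes tested passed (edgeR, adjusted over 8337 genes, of which 489 passed). On the log2 scale, macrophage-like minus microglia-like, the GBPs gave -0.71 (Gbp3), -1.39 (Gbp2), -1.49 (Gbp4) and -1.11 (Gbp6). The immunity-related GTPases gave -0.88 (Irgm1), -0.88 (Igtp), -0.83 (Irgm2) and -1.33 (Iigp1). The type I genes gave -2.27 (Rsad2) and -1.37 (Ifit1). The gates of the 2 classes also differed in tag level and in cluster makeup, and the part of these in the differences was not tested.

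Of 24 groups of 10 samples that were searched, 3 held a sample far from the others, and chance flags about 1 in 20 groups. The groups came from dendritic-like against macrophage-like cells and from the gates of macrophage-like cells. Comparisons with more than 10 samples were not searched. In dendritic-like against macrophage-like cells, sample 1.3 stood apart for Gbp7, with a log2 difference of -1.0, and for Gbp3, with -1.41. Between the gates of macrophage-like cells, sample 2.4 stood apart for Rsad2, with a log2 difference of 2.42.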

How the results depend on the processing

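Both comparisons of monocyte-like cells kept their counts of members within 1.5 times under every alternative run. Of 1012 values of single genes under the alternatives, 931 kept their side of the threshold, 50 lost the call and 31 gained one. None changed direction where either value passed. Changes of direction between values that both missed the threshold were not counted. In macrophage-like against microglia-like cells, 4 members were higher, against 1 with total UMI scaling, 7 without a filter on low counts, and 2 to 4 with each pool left out; 1 was lower, against 0 with the mixed clusters kept in classes, an alternative chosen after seeing the data, and 0 to 1 with each pool left out. In dendritic-like against macrophage-like cells, 7 members were higher, against 4 with classes from marker shares, and 1 was lower, against 2 with total UMI scaling and 2 without a filter; the genes called in all, 4085, ran from 2548 (without pool 2) to 4151 with each pool left out. Between the gates of microglia-like cells, 770 genes were called, against 492 with classes from marker shares, 2498 with gates on raw tag counts, and 140 (without pool 2) to 619 with each pool left out, and the 7 higher members became 2 (without pool 1) to 8. Between the gates of macrophage-like cells, 169 genes were called, against 389 without a filter, 80 with classes from marker shares, 689 with mixed clusters kept, and 26 (without pool 1) to 184 with each pool left out. There 0 members were higher, against 1 without a filter, 1 with HTODemux assignment of hashtags, and 0 to 1 with each pool left out. The cause of these changes was not tested.

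Without the replicate block, which ignores that both arms come from the same hashed sample, 2 members were higher and 0 lower in macrophage-like against microglia-like cells, and 3 were higher in dendritic-like against macrophage-like cells. Without the block the microglia-like gates gave 0 called genes and 0 higher members by edgeR, with 858 of 7304 genes at an unadjusted p under 0.05 (DESeq2 was run with the block only), and the macrophage-like gates 22 called genes. Pool 3, with the fewest cells, and sums of few cells limit the precision of low members such as Gbp6 and Irgm2.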

Other observations

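Clusters that were given no class also held the GTPase RNAs. In cluster 0, which had macrophage and microglia markers together and was led by Upp1, Ms4a7 and Arg1, the 10 members summed to a median of 1061 CPM (887 to 2622, 10 samples). In cluster 7, led by Cst7 and Cd72, they summed to 1313 CPM (728 to 2236, 7 samples), and in cluster 21, led by the neuronal genes Nrgn and Snap25, to 467 CPM (151 to 1174, 6 samples). These cells entered none of the comparisons.

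In microglia-like cells, samples 2.3, 3.3 and 3.4 had the lowest ratios of summed members to Ifit1 plus Rsad2, at 3.16, 2.36 and 2.36. Samples 2.3 and 3.4 also had the lowest ratios in monocyte-like, macrophage-like and dendritic-like cells, the last at 1.53 and 1.42, while sample 3.3 gave no sum of those classes. Which groups these hashtags mark is not given in the labels.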
